A study of Mus musculus with 7 samples.

Results

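The genes described here encode intermediate filament proteins: the keratins Krt7, Krt8, Krt13, Krt18 and Krt19, vimentin (Vim), nestin (Nes) and the A-type lamins (Lmna). All 8 were found by symbol among 23996 genes measured in 3T3-L1, a mouse line of embryonic fibroblasts able to become fat cells under hormones. They were chosen by the level of Krt13, which was higher at 24 h than before differentiation, so 24 h against 0 h is given below as a description without a test. There were 7 libraries, 1 for each condition. The 0h Control came from confluent cells before differentiation. The 4h MDI and 24h MDI libraries came from cells collected 4 h and 24 h after MDI, a mixture of IBMX (a phosphodiesterase inhibitor that raises cAMP), dexamethasone (a synthetic glucocorticoid) and insulin. The 4h CM and 24h CM libraries came from cells given conditioned medium (CM), which was MDI medium that 3T3-L1 cells had differentiated in for 48 h. Preconfluent cells given MDI or CM, with no time stated, are called Pro-MDI and Pro-CM, and the density of the cells at 4 h and 24 h is not stated. All treated cells were thus given medium made with IBMX, dexamethasone and insulin. How much of these remained in CM after 48 h is not stated. No library was collected at 4 h or 24 h without such medium. In each comparison with 0h Control, elapsed time and the effects of medium and inducers therefore cannot be told apart. Pro-MDI against 0h Control differs in cell density as well, which cannot be told apart from these. 3T3-L1 is a single established line, and the labels name no separate cultures.

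Intermediate filaments are rope-like polymers that give cells mechanical strength. Keratin filaments are built from pairs of a type I and a type II keratin and are the filaments of epithelial cells. Fibroblasts instead build theirs from vimentin, a type III protein. Lamins are type V proteins that line the inside of the nuclear envelope, and nestin is a type VI protein known from neural and muscle progenitors.

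Values are FPKM (fragments counted per transcript length and per mapped fragments of the library), so levels of different genes can be compared per length. Read totals are not given. Among values under 0.06 FPKM, the most frequent ratio to 0h Control lay between 0.758 in Pro-CM and 1.07 in 4h CM and 24h MDI, which places the worth of a read within 1.41-fold across libraries. FPKM summed to between 558532 and 714427 per library, and between 10530 and 11101 genes reached 1 FPKM. The labels call the cells adipocytes. Fibroblast genes were abundant in all libraries (Col1a1, a collagen chain, at 425 to 1996 FPKM), whereas Adipoq, a hormone gene of mature fat cells, was at most 0.93 FPKM and Plin1, a lipid droplet coat gene, at most 3.75, both in 24h CM. Other fat cell genes were higher, with Fabp4 at 27.9 to 108 FPKM and Pparg at 11.8 to 54.1. Of 10 fat cell genes 9 reached 1 FPKM in at least 1 library, and their sum ran from 81.3 in Pro-CM to 624 in 24h CM. A list of 10 fibroblast genes summed to 8835 FPKM in 0h Control, 6926 at 4 h in MDI and 7321 in CM, but to between 2125 and 2604 in the other 4 libraries. With 1 library per condition there is no replicate spread, so the order of 2 neighbouring levels cannot be tested. Differences of 1 or more in log2(FPKM + 1), among genes at 1 FPKM or more in at least 1 library of the pair, are called 2-fold below. This scale understates the change of low genes.

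Krt13 is a type I keratin known from the upper layers of the lining of the mouth and oesophagus. It lies on chromosome 11 at 100117596 to 100121495, on the minus strand (positions here are the authors', whose build is not named; all 8 overlap the gene of that symbol in GRCm38). Its level was 0.173 FPKM in 0h Control, 50.9 in 4h MDI, 25.5 in 4h CM, 63.4 in 24h MDI, 37.9 in 24h CM, 31.04 in Pro-MDI and 9.36 in Pro-CM. All 6 treated libraries were above the untreated one, and at every stage the CM library was below its MDI partner. By rank among all genes Krt13 went from place 12666 in 0h Control to place 1318 in 24h MDI. The difference from 0h Control in log2(FPKM + 1) was 5.78 at 24 h in MDI and 5.05 in CM, which are values behind the choice of genes. It was 5.47 in 4h MDI, 4.50 in 4h CM and 4.77 in Pro-MDI. These comparisons share the 0h Control library. Most of the difference was already present at 4 h, since 24h MDI exceeded 4h MDI by 0.31 and 24h CM exceeded 4h CM by 0.55. In the authors' deposited table Krt13 had a Cuffdiff p of 0.0813 and a q-value of 0.999 in each of the 4 comparisons of 4 h and 24 h with 0h Control. The smallest Cuffdiff p of a member in these comparisons was 0.0115, for Krt7 in 24h CM, with q = 0.541.

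The sequence in front of Krt13 is shown because Krt13 is the member with the widest range of levels and the one that led to the choice of the genes. It is the 250 bases before the start site from RefSeq, build GRCm38.p6, chr11:100121567-100121816, written 5′ to 3′ on the minus strand. Capitals mark matches on either strand to AP-1 (TGANTCA, which reads the same on both strands), a hexamer that the glucocorticoid receptor can bind (AGAACA) and the CACCC box (CACCC).
Krt13: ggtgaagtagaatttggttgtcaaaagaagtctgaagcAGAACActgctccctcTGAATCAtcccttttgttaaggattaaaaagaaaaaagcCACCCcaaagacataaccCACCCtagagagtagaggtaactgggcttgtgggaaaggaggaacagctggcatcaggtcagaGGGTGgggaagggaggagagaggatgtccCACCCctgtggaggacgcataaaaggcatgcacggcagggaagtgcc
The AP-1 letters, here TGAATCA, stood at -196 to -190 and the hexamer at -212 to -207, counted from the start site, and CACCC stood at 4 places. Among the first listed promoters of 27025 genes, cut to the same length, 6.87% held the AP-1 letters, 16.2% the hexamer and 51.3% CACCC. The letters of the cAMP response element (TGACGTCA), of a C/EBP site (TTGCNNAA) and of a TATA box (TATAAA) were not in this window, and 1.62%, 9.55% and 12.97% of all promoters held them. RefSeq gives Krt13 another start site. The 250 bases before that one held the AP-1 letters, there TGACTCA, at -183 to -177 and at -34 to -28. They also held CACCC, on the opposite strand, at -25 to -21, but not the hexamer. A match of letters is a description and does not show that a factor binds.

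**Figure D1:**
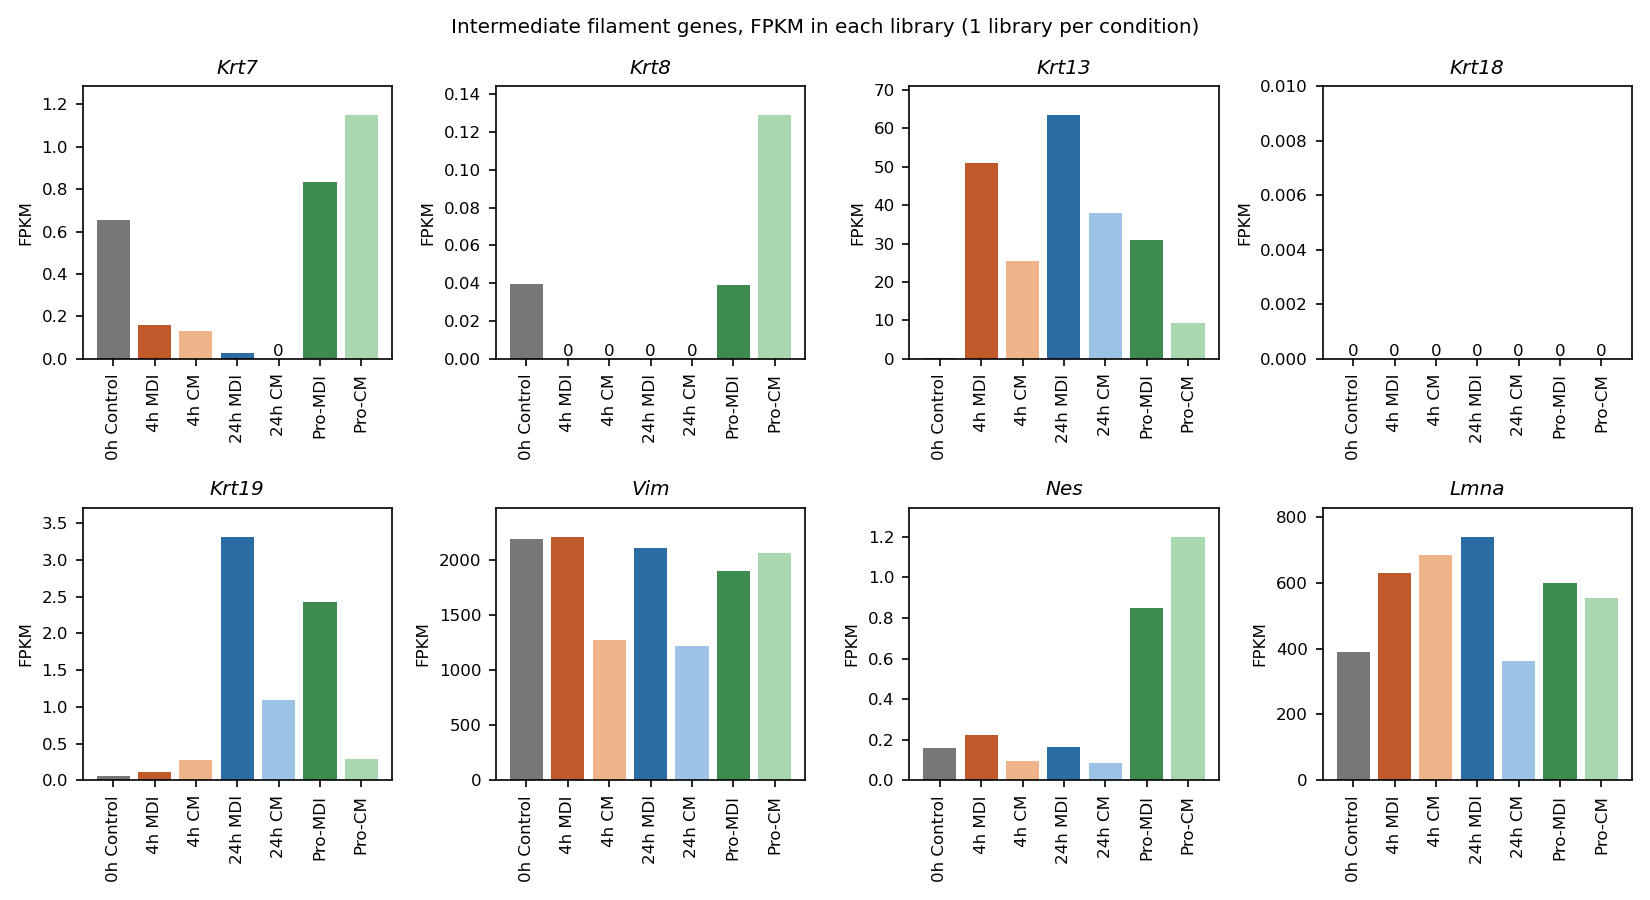
FPKM (linear axis from 0, scaled for each gene) of the 8 members in the 7 libraries, 1 bar per library, with 0 written where a gene is listed at 0. Krt13 is at 0.173 in 0h Control and between 9.36 and 63.4 in the treated libraries, Krt18 is listed at 0 in all 7, and Vim is lowest in 4h CM and 24h CM.

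Krt13 was accompanied by its nearest neighbour. Krt15, a type I keratin of the basal layer of epidermis, starts 10264 bases from the end of Krt13 (chromosome 11, 100131759 to 100135949). It was at 0.296 FPKM in 0h Control, 38.7 in 4h MDI, 22.6 in 4h CM, 71.4 in 24h MDI and 63.0 in 24h CM. In preconfluent cells it was at 7.18 in Pro-MDI and 0.938 in Pro-CM, far under its level at 4 h and 24 h. Over both media Krt15 rose at 4 h against 0 h in limma, a linear model fitted across all genes (log2 difference 4.56, SE 0.59, Benjamini-Hochberg adjusted p = 0.0306). It did not pass without the 24h pair (adjusted p = 0.0655) or without the filter on low values (0.0522). Krt15 was under 1 FPKM in 0h Control and entered the test only through libraries where it was high, so this call is a description. The ratio of Krt13 to Krt15 was between 0.586 and 1.31 in 0h Control and the 4h and 24h libraries, but 4.33 in Pro-MDI and 9.98 in Pro-CM.

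Krt19, the smallest type I keratin and a gene of simple epithelia, follows 4862 bases beyond Krt15 (chromosome 11, 100140811 to 100145919). It was at 0.0604 FPKM in 0h Control, 0.111 in 4h MDI and 0.284 in 4h CM. It was at 3.32 in 24h MDI, 1.10 in 24h CM, 2.43 in Pro-MDI and 0.294 in Pro-CM. Krt19 was thus low at 4 h, where Krt13 was already high, and its 2 highest libraries were 24h MDI and Pro-MDI. Its change at 4 h against 0 h did not pass in limma (0.17, SE 0.51, adjusted p = 0.825).

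Krt13 and Krt19 were under 1 FPKM in 0h Control, so they were measured against it only through libraries where they were high, and the 0h level of Krt13 had a part in the choice of genes. The counts against 0h that follow are therefore descriptions from which nothing is read. By the 2-fold rule, 1 of 3 members measured (Krt13) was higher at 4 h than in 0h Control, in MDI as in CM, where 13.5% and 9.53% of all genes were higher. In 24h MDI 2 of 4 were higher, Krt13 and Krt19 (8.92% of all genes), and in 24h CM 1 of 4, Krt13 (8.21%), in the contrast that chose the genes. In Pro-MDI 2 of 4 were higher, Krt13 and Krt19 (12.3% of all genes). None was lower in these 5 comparisons as deposited. From 4 h to 24 h, 1 of 4 was higher in MDI, Krt19 with a difference of 1.96 (12.1% of all genes), and none of 4 differed by 2-fold in CM (13.7%). The members under 1 FPKM in both libraries of a pair were not counted. In limma at 4 h against 0 h, Krt7, Krt19, Vim, Nes and Lmna were tested and none passed, where 16.2% of 11724 genes did; Krt7 came nearest (-0.53, SE 0.18, adjusted p = 0.0977), and passed after rescaling to TPM (-0.85, adjusted p = 0.0471).

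The other keratins were mostly silent. The tables hold 52 keratin genes, of which 15 were at 0 in all 7 libraries, 10 reached 1 FPKM in at least 1 library and 3 reached 5 FPKM. Those 3 were Krt13, Krt15 and Krt23. Of the 10, 8 are type I genes of chromosome 11, out of 26 measured there. Krt36, the neighbour of Krt13 on the other side and a keratin known from hair and tongue, was at 0 in 0h Control, 1.05 and 1.08 in the 4h MDI and 4h CM libraries, and 3.28 and 3.55 in 24h MDI and 24h CM. Krt16, a keratin of wounded and rapidly dividing epidermis, was at 0.0202 in 0h Control, 2.96 in 24h MDI and 2.42 in 24h CM. Krt23, a type I keratin that lies apart from these on the same chromosome, peaked early. It was at 0.0191 in 0h Control, 9.33 in 4h MDI, 3.31 in 4h CM and 0.325 in 24h MDI, and it rose at 4 h in limma (2.71, SE 0.49, adjusted p = 0.0392; 0.0878 without the 24h pair). Of the keratins other than the members, 45 are in the tables, 7 were tested at 4 h against 0 h, and 2 of these rose (Krt15 and Krt23) and none fell, where 8.23% of all genes rose and 7.99% fell. Neither of the 2 passed without the 24h pair. Of the 7, 6 were under 1 FPKM in 0h Control and were tested only through libraries where they were higher. Krt15 and Krt23 are among these 6, so nothing is read from this count or from their calls. The 38 others were too low to be tested.

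**Figure D2:**
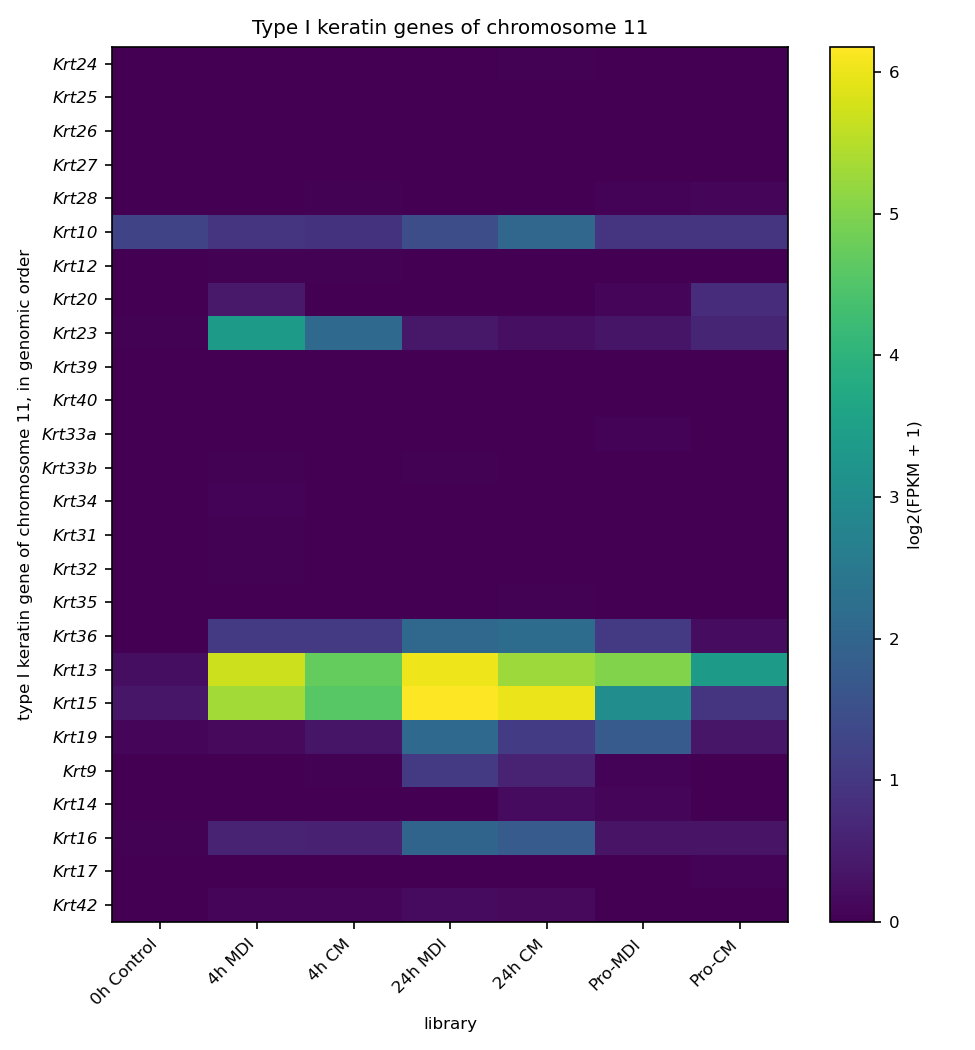
Level in log2(FPKM + 1) (colour) of the type I keratin genes of chromosome 11, in genomic order from top to bottom, in the 7 libraries. The bright rows are Krt13 and Krt15, which are next to each other, with weaker signal in Krt36 and Krt19 on either side, and Krt23 is bright at 4 h. Krt10 and Krt16, which lie farther off, also have weak signal, at up to 3.13 and 2.96 FPKM, and Krt10 was at 1.42 in 0h Control.

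Type II keratins, the partners a type I keratin needs to form a filament, stayed at low levels. Type I keratins summed to 1.99 FPKM in 0h Control and to between 13.3 and 148 in the treated libraries. Type II keratins summed to 1.21 FPKM in 0h Control, 1.61 in 4h MDI, 0.79 in 4h CM, 0.465 in 24h MDI, 0.125 in 24h CM, 3.82 in Pro-MDI and 4.64 in Pro-CM. The type II sum was thus above 0h Control in both preconfluent libraries and in 4h MDI, and below it in 4h CM and at 24 h. The type II gene with the highest level was Krt80, at 0.45 FPKM in 0h Control, 2.69 in Pro-MDI and 2.96 in Pro-CM. Krt7, a type II keratin of ducts and simple epithelia (chromosome 15, 101412403 to 101427806), was at 0.656 in 0h Control, 0.16 in 4h MDI, 0.129 in 4h CM, 0.0265 in 24h MDI, 0 in 24h CM, 0.833 in Pro-MDI and 1.15 in Pro-CM. It was thus above 0.6 FPKM in untreated and preconfluent cells and lower in the 4 libraries at 4 h and 24 h. Krt8, the type II keratin of simple epithelia (chromosome 15, 101996711 to 102004342), was at 0.0397 in 0h Control, 0.0390 in Pro-MDI and 0.129 in Pro-CM, and was listed at 0 in the other 4 libraries. Krt18, its usual partner and neighbour (chromosome 15, 102028216 to 102032026), was listed at 0 in all 7, so no pattern can be compared with it. GENCODE release M21 lists a processed pseudogene of Krt8 that has no row of its own in the tables.

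The 250 bases before Krt18 are shown for contrast with Krt13, as Krt18 is the member listed at 0 in every library (RefSeq, GRCm38.p6, chr15:102027966-102028215, plus strand, with capitals marking CACCC).
Krt18: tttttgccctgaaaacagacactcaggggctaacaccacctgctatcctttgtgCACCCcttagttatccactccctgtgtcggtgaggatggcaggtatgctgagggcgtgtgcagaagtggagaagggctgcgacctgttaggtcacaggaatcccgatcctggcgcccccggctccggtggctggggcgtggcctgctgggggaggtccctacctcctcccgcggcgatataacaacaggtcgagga
Of the 6 motifs searched, CACCC was found here, at -196 to -192. Promoters were found for 7 of the 8 members; Krt19 had none in the table.

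Genes with the profile closest to that of Krt13 were sought among 9219 protein-coding genes at 5 FPKM or more in at least 1 library, by the root mean square difference of log2(FPKM + 1) after subtracting each gene's mean over the 7 libraries. The nearest was Glul, glutamine synthetase, with a difference of 0.63. It was at 7.58 FPKM in 0h Control and between 125 and 313 in the treated libraries. Next came Nfil3, a leucine zipper transcription factor (0.86), Limk1, a kinase that acts on cofilin (0.89), Myc, a regulator of growth (0.93), and Gprc5b, a membrane receptor (0.98). Krt15 was in place 12, with 1.09, and the median over all genes was 1.88. The 5 nearest genes, like Krt13, were lowest in 0h Control.

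**Figure D3:**
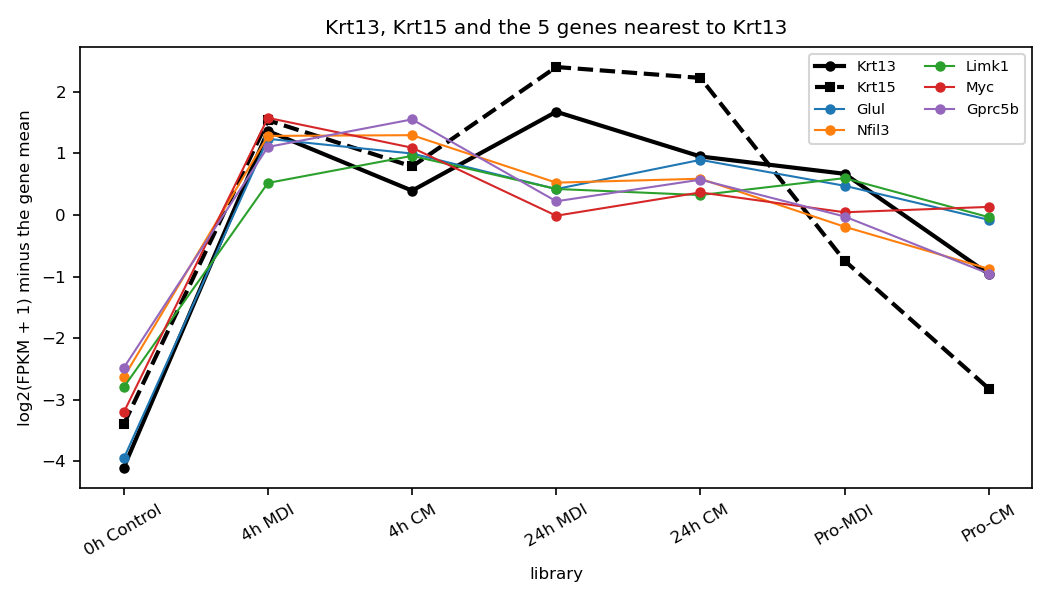
Level in log2(FPKM + 1) minus the gene's mean over the 7 libraries (vertical axis) for Krt13, Krt15 and the 5 genes nearest to Krt13, with 1 point per library and lines that only join points of a gene. All are lowest in 0h Control, and Krt15 is below the others in Pro-CM, at 0.938 FPKM. The 5 genes were picked for likeness to Krt13 over these same libraries.

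The next comparison asks how conditioned medium differed from fresh MDI. Krt13 was lower in CM at each of the 3 stages, with 25.5 against 50.9 FPKM at 4 h, 37.9 against 63.4 at 24 h and 9.36 against 31.04 in preconfluent cells. The differences in log2(FPKM + 1) were -0.97, -0.73 and -1.63. In limma, with the 6 treated libraries blocked by stage, the mean difference was -1.11 (SE 0.21), with an unadjusted p of 0.00383 and an adjusted p of 0.9999. No gene of 11463 passed that test after adjustment, and 143 had an unadjusted p under 0.05, so the model called 0% of all genes. Between 10 alternative settings the Krt13 estimate ranged from -1.30 to -0.85, with adjusted p between 0.782 and 0.9999. The 24h levels of Krt13, which led to the choice of genes, are in the main fit, so its unadjusted p is a description. Without the 24h pair the estimate was -1.30.

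Krt19 was higher in CM at 4 h at levels under 1 FPKM, at 0.284 against 0.111, and lower at 24 h (1.10 against 3.32, difference -1.04) and in preconfluent cells (0.294 against 2.43, difference -1.41). Krt15 differed little at 24 h (63.0 in CM and 71.4 in MDI), by -0.75 at 4 h and by -2.08 in preconfluent cells, where it was at 0.938 in CM and 7.18 in MDI. Vimentin was lower in CM at 4 h and 24 h, at 1276 against 2216 FPKM at 4 h (difference -0.80) and 1226 against 2111 at 24 h (difference -0.78), but not in preconfluent cells (2066 in CM and 1900.5 in MDI, difference 0.12). Lmna was 2-fold lower in CM at 24 h alone, at 363 against 739 FPKM, a difference of -1.02 that became -0.90 after rescaling to TPM. At 4 h it was at 683 in CM and 629 in MDI, and in preconfluent cells at 552 and 598. Limma estimates were -0.75 (SE 0.34) for Krt19, -0.49 (SE 0.23) for Vim and -0.34 (SE 0.25) for Lmna, each with an adjusted p of 0.9999. Without the 24h pair the Lmna estimate was 0.00. Krt7 and Nes differed by at most 0.25 in log2(FPKM + 1) at any stage, a scale that understates changes at such low levels. Nes was at 0.095 FPKM in CM and 0.224 in MDI at 4 h, 0.0843 and 0.163 at 24 h, and 1.20 and 0.851 in preconfluent cells.

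By the 2-fold rule none of the 3 members measured at 4 h differed, where 4.06% of all genes did. At 24 h, 2 of 4 were lower in CM (Krt19 and Lmna), where 1.49% of all genes were lower. In preconfluent cells 2 of 6 were lower (Krt13 and Krt19), where 1.23% of all genes were lower. None was higher in CM at any stage. The members were chosen with results known and Krt19 was measured only through its high libraries, so these shares describe the members and are no test. In the authors' deposited table the smallest p of a member for CM against MDI was 0.0563, for Krt13 in preconfluent cells, with q = 0.982. Fat cell markers differed between the media too: 10 such genes summed to 624 FPKM in 24h CM and 151 in 24h MDI. At 4 h the sums were 244 in CM and 170 in MDI, and in preconfluent cells 81.3 and 147. Their part in the filament differences was not tested.

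**Figure D4:**
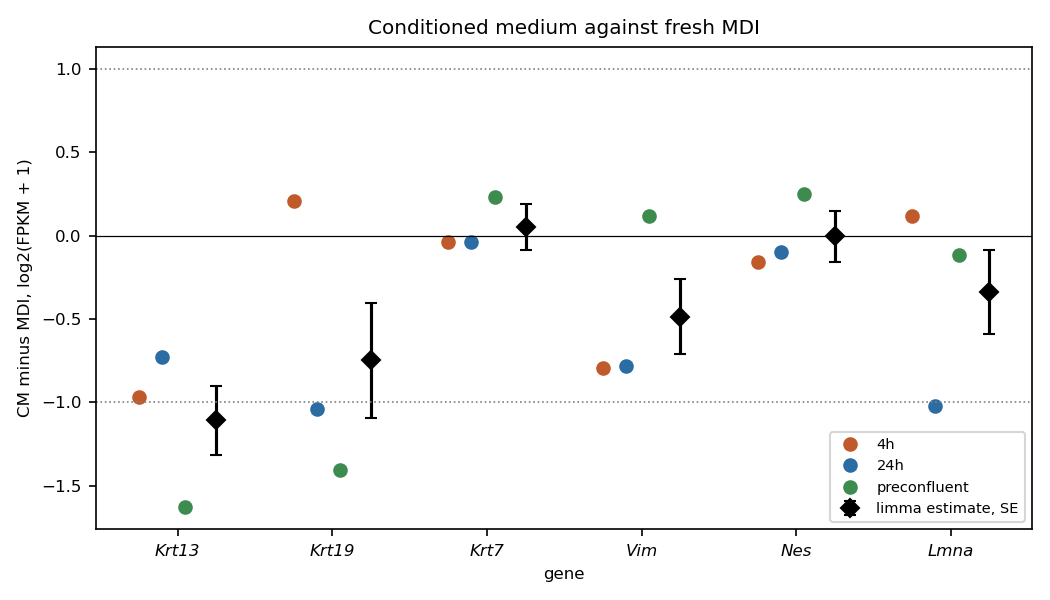
CM minus MDI in log2(FPKM + 1) (vertical axis) for 6 members at 4 h, at 24 h and in preconfluent cells (1 point each, from 2 libraries), with the limma estimate and its SE as a diamond and dotted lines at 2-fold. Krt13 is below 0 at all 3 stages, whereas Lmna is clearly below 0 at 24 h and Vim at 4 h and 24 h.

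Preconfluent cells were compared with cells at 4 h, over both media, an estimate that uses neither 0h nor 24h levels but takes its error from all 6 treated libraries. The collection time of preconfluent cells and the density of cells at 4 h are not stated, so time and density cannot be told apart. Of 11463 genes 17.7% passed in limma, 8.59% as higher. Of the 6 members tested 1 passed, and Krt7 rose (log2 difference 0.79, SE 0.17, adjusted p = 0.0428), from 0.16 and 0.129 FPKM at 4 h to 0.833 and 1.15. It did not pass without the 24h pair (adjusted p = 0.137). Krt7 and Nes reached 1 FPKM in Pro-CM alone. They were thus tested only through a library where they were high, so nothing is read from this count. Krt13 missed the threshold (-1.02, SE 0.26, adjusted p = 0.0572), and so did Nes (0.80, SE 0.19, adjusted p = 0.0502), which was at 0.224 and 0.095 FPKM at 4 h and 0.851 and 1.20 in preconfluent cells. Nes passed under 4 of 7 alternatives, with adjusted p from 0.0336 to 0.143. Krt19, Vim and Lmna had estimates of 0.82 (SE 0.42), 0.24 (SE 0.28) and -0.19 (SE 0.31), with adjusted p of 0.23, 0.572 and 0.691. Among the other keratins Krt15 fell by 2.94 (SE 0.47, adjusted p = 0.0226, and 0.0566 without the filter) and Krt23 by 2.24 (SE 0.40, adjusted p = 0.0286). Krt23 reached 1 FPKM in the 4h libraries alone, so it was tested only through libraries where it was high, and its call is a description. Krt80 rose by 1.00 (SE 0.21, adjusted p = 0.0408, and 0.104 without the 24h pair).

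Vimentin was by far the most abundant filament gene (chromosome 2, 13574311 to 13582826). It was at 2199 FPKM in 0h Control, 2216 in 4h MDI, 1276 in 4h CM, 2111 in 24h MDI, 1226 in 24h CM, 1900.5 in Pro-MDI and 2066 in Pro-CM. The 4h CM and 24h CM libraries were thus the lowest, and the other 5 were at 1900.5 or more. Against 0h Control, Vim in 4h MDI differed by 0.01 as deposited and by -0.34 after rescaling to TPM, and its 4h change did not pass in limma (-0.39, SE 0.34, adjusted p = 0.441). Vim made up between 91.5% and 99.5% of the summed FPKM of keratins and of type III, IV and VI filament genes. Keratins made up 0.148% of that sum in 0h Control, 4.46% in 4h MDI, 6.55% in 24h MDI and 8.38% in 24h CM. Nestin (chromosome 3, 87971093 to 87980451) stayed between 0.0843 and 1.20 FPKM, and was highest in the 2 preconfluent libraries. Synemin (Synm), a large filament protein that joins vimentin filaments, was at 6.37 FPKM in 0h Control, 4.80 in 4h MDI, 0.947 in 24h MDI and 0.391 in Pro-CM, and fell in preconfluent cells against 4 h (by 1.93, SE 0.22, adjusted p = 0.0106).

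Lmna (chromosome 3, 88481148 to 88503352) encodes lamins A and C. It was at 389.9 FPKM in 0h Control, 629 in 4h MDI, 683 in 4h CM, 739 in 24h MDI, 363 in 24h CM, 598 in Pro-MDI and 552 in Pro-CM. The 24h CM library and 0h Control were thus the 2 lowest. The change at 4 h against 0 h did not pass in limma (0.75, SE 0.38, adjusted p = 0.212). The B-type lamin Lmnb1 was at 11.2 in 0h Control, 21.1 in 4h MDI, 11.6 in 4h CM, 37.5 in 24h MDI, 24.6 in 24h CM, 51.9 in Pro-MDI and 63.9 in Pro-CM, and rose in preconfluent cells against 4 h (1.81, SE 0.30, adjusted p = 0.0251). Lmnb2 was at 5.09 in 0h Control and 19.1 in Pro-CM, and rose at 4 h (1.01, SE 0.18, adjusted p = 0.0397; 0.115 without the 24h pair). The share of Lmna in summed lamin FPKM was 96.0% in 0h Control and 87.0% in Pro-CM. Top2a, a DNA topoisomerase of dividing cells, was at 9.69 FPKM in 0h Control, 15.2 and 21.8 at 4 h, 130 and 149 at 24 h, and 104 and 98.6 in preconfluent cells, in the order MDI and CM. Its 4 highest libraries, from 24 h and from preconfluent cells, are also those of Lmnb1 and Lmnb2, and whether cell division had a part was not tested.

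**Figure D5:**
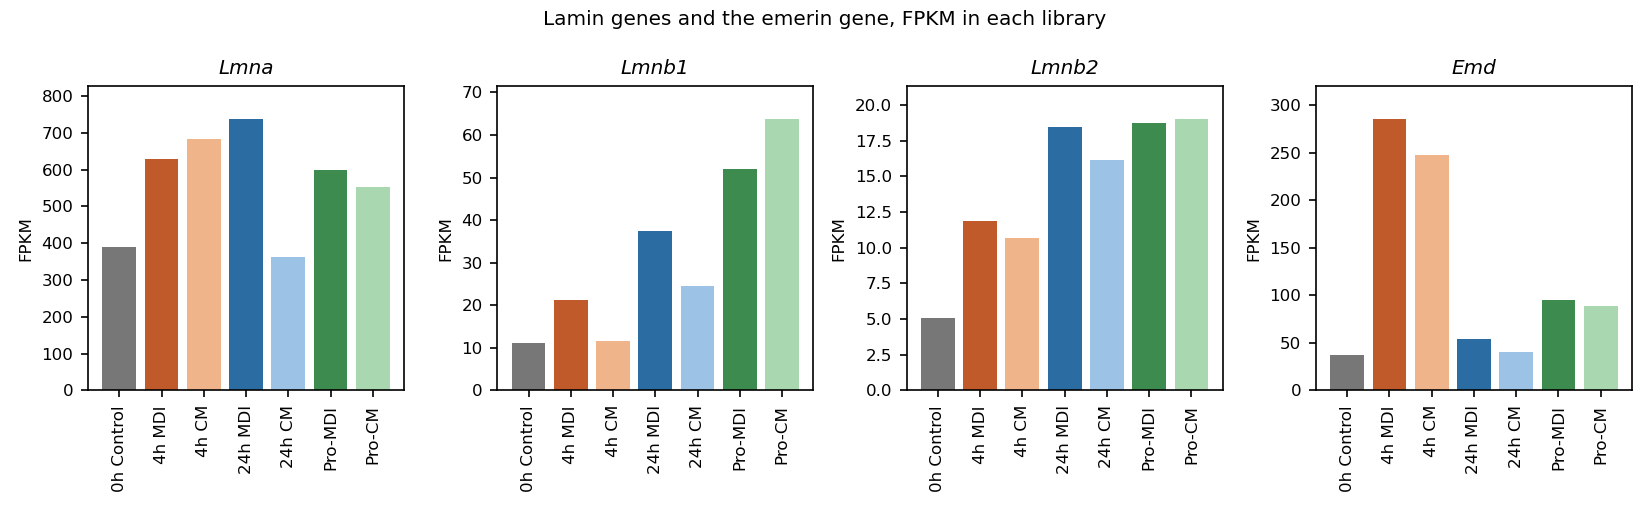
FPKM (linear axis from 0, scaled for each gene) of the 3 lamin genes and of Emd in the 7 libraries, 1 bar per library. Lmnb1 and Lmnb2 are highest in the preconfluent libraries, Emd is highest at 4 h (286 and 248), and Lmna is lowest in 24h CM and 0h Control.

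Proteins that hold the lamina or tie filaments to other structures were described from lists. Of 20 lamina partners 19 were tested at 4 h against 0 h, where 4 rose and 1 fell, against 8.23% and 7.99% of all genes. Emd, which encodes emerin, a lamin-binding protein of the inner nuclear membrane, was at 37.4 FPKM in 0h Control, 286 in 4h MDI and 248 in 4h CM, then 54.3 and 40.7 at 24 h (log2 difference at 4 h 2.80, SE 0.18, adjusted p = 0.0243). The others that rose were Lemd2, an inner membrane protein, Icmt, a methyltransferase that acts on lamin precursors, and Sun1, which links the nucleus to the cytoskeleton. Syne2, a partner of the SUN proteins, fell. Of 20 linker and desmosome genes 8 were tested, of which Pkp4 rose (1.81, SE 0.22, adjusted p = 0.0295) and the junction gene Jup and the plakin gene Ppl fell. Jup was at 6.91 FPKM in 0h Control, 1.48 in 4h MDI and 1.08 in 4h CM. Ppl was at 1.04 FPKM in 0h Control, 0.119 in 4h MDI and 0.171 in 4h CM. It reached 1 FPKM in 0h Control alone, so it was tested only through the library where it was high. Without the 24h pair none of these 8 genes passed at 4 h, with Emd at an adjusted p of 0.0566. In preconfluent cells against 4 h, Tmpo and Banf1, which bind chromatin at the lamina, rose and Emd and Sun1 fell among 19 lamina partners, and Jup and Pkp2, a desmosomal plaque gene, rose among 7 linker genes tested, where 8.59% of all genes rose and 9.07% fell. Sun1 (adjusted p = 0.102) and Pkp2 (adjusted p = 0.0563) did not pass without the 24h pair.

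Markers of other cell types were read beside the keratins. Of 12 epithelial genes, which include Cdh1 (E-cadherin) and Epcam, none reached 1 FPKM in any library, and their sum lay between 0.0335 and 0.364 FPKM, highest in 0h Control. Epcam was at 0 in all 7 libraries, and the basal keratinocyte keratin Krt5 was too. Of 10 keratinocyte genes 2 reached 1 FPKM, Krt10 and Trp63, and the sum was 3.72 in 0h Control, 2.34 in 4h MDI and 5.39 in 24h MDI. Trp63, a transcription factor of basal epithelium, was at 0.92 FPKM in 0h Control, 0.196 in 4h MDI, 0.21 in 4h CM, 2.37 in 24h MDI, 1.00 in 24h CM, 0.0822 in Pro-MDI and 0.0121 in Pro-CM. Its highest library was thus 24h MDI, as for Krt13, but it was below 0h Control at 4 h and in preconfluent cells. The part of these markers in the keratin levels was not tested. Among 8 mesothelial genes 3 reached 1 FPKM (Msln, Bnc1 and Cldn15), and Upk3b and Lrrn4 were at most 0.0468 and 0.00868. The sum ran from 10.997 in 4h CM to 70.2 in 24h CM, where Cldn15 was at 64.3. None of 6 endothelial genes reached 1 FPKM, 1 of 5 measured macrophage genes did, and of 6 muscle genes Des and Tnnt2 did, with Tnnt2 at 85.1 in Pro-CM. In bulk RNA a few cells with much Krt13 and many cells with a little cannot be told apart.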

How the data were processed

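Per the labels' protocols, RNA was extracted with Trizol and prepared for sequencing by Illumina's standard method. Per the submitters' processing notes the authors used TopHat2 2.0.13 and Cuffdiff 2.2.0; settings, strandedness and the build were not given in the sources used here. They deposited 7 tables of 2 libraries each with FPKM, and with Cuffdiff p-values and q-values that compare single libraries, per the file headers. FPKM of a library were equal between tables (largest difference 1.11e-16) and were joined. Each table had 1 empty line, which was dropped. All 8 members overlapped their namesake in GENCODE M21 (GRCm38); starts are the authors' plus 1.

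Levels used log2(FPKM + 1). Limma 3.58.1 (R 4.3.3) with an intensity trend was fitted to genes at 1 FPKM or more in any library of the fit, adjusted over all of them at 0.05, and tested on simulated data. The medium and preconfluent contrasts used 6 libraries, the 4h contrast all 7, with stage and medium as terms. Residual degrees of freedom were 2 in each fit of all stages, and fewer in the fits without a pair. They carry library noise together with any interaction of stage and medium, so the p-values say nothing of how cultures vary. In the 4h and preconfluent contrasts, leaving out the 24h pair did not change the estimates (Krt15 at 4 h was 4.56 in both fits). It changed their error and its degrees of freedom, and the genes that entered the fit. Krt13 was not tested against 0h. The members and lists were chosen with earlier results of these data known. Named beyond the members were keratins, lamins and type III to VI genes at 5 FPKM or more, up to 6 genes of the linker and lamina lists with the widest pair difference, and the 5 genes nearest to Krt13. Krt9, Krt10, Krt16, Krt36, Krt80 and other genes of the lists were named after their values were seen. Alternatives changed the pseudocount, the filter, the scaling, the trend or the stages fitted. Python 3.11.15, numpy 2.4.6, pandas 2.3.3 and matplotlib 3.10.9 were used.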

Additional observations from a re-analysis of the deposited data

How the results depend on the processing

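No analysis paired by replicate number was possible because the labels give none and each condition is 1 library; the medium contrast pairs CM with MDI by stage. Rescaling to TPM shifted every gene against 0h Control by between -0.36 (4h MDI) and -0.16 (Pro-MDI) on the log2 scale, and median-ratio scaling by 0.05 to 0.09. Counts of members at least 2-fold different moved by 1 or 2. With a pseudocount of 5, or a filter at 5 FPKM, Krt19 no longer counted, which left 1 higher in 24h MDI and 1 in Pro-MDI against 0h, 1 lower in CM at 24 h and 1 in preconfluent cells, and 0 higher at 24 h against 4 h in MDI. With a pseudocount of 0.1 Krt19 also counted as higher in 24h CM against 0h (2 higher) and against 4h CM (1). After rescaling to TPM, 2 were higher in 24h CM, 1 was lower in 4h CM (Vim), 1 in 24h MDI (Krt7) and 2 in 24h CM (Krt7 and Vim) against 0h, and 1 was lower in CM at 24 h (Krt19). With median-ratio scaling Krt13 counted as 2-fold lower in CM at 4 h (1). Over all genes, limma called 4 for the medium without the 24h pair, in place of 0, none of them a member. It called 1074 for preconfluent against 4 h without the 24h pair, in place of 2025. For 4 h against 0 h it called 1185 without a filter and 21 without the 24h pair, in place of 1902; the cause was not tested. The split of the 4h calls was 627 higher and 2154 lower after rescaling to TPM, against 965 and 937. The preconfluent split became 1426 and 834, against 985 and 1040. Krt7 in preconfluent cells lost its call in 3 of 7 alternatives. Calls held in 7 of 8 alternatives for Krt15 and Lmnb1 and in 6 of 8 for Krt23 and Lmnb2 in that contrast, and at 4 h in 7 of 9 for Krt15, 6 of 9 for Krt23 and 5 of 9 for Lmnb2. No called value of a member reversed. The other 125 counts stayed within 1.5 times.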
